A study of Mus musculus with 12 samples.

Results

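*Mgp*, *Spp1*, *Sox9*, *Runx1*, *Runx2*, *Acan*, *Comp*, *Alpl*, *Enpp1* and *Ank* are regulators of calcification and of the cartilage and bone programmes that arterial smooth muscle cells (SMCs) can take up. They are defined by gene symbol and not by a threshold on their values, and are 10 of the 52636 genes in the count matrix. All 10 were found, and all 10 were among the 22320 genes with enough counts to be tested.

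Bulk RNA-seq was done on GFP+ SMCs sorted from the thoracic aorta of C57BL/6J mice that were 12 weeks old. GFPiSMC mice carried *Myh11*-CreERT2 and the mT/mG reporter, in which Cre switches a cell from a red to a green label, and Tgfbr1/2iSMCKO mice carried these together with floxed *Tgfbr1* and *Tgfbr2* alleles. Mice of both genotypes received tamoxifen for 5 days to activate Cre. By the study's methods, the dose was 2 mg/d from 11 weeks of age in mice analysed at 12 weeks, about 1 week after the start. Cells came separately from the ascending aorta with the arch and from the descending thoracic aorta, which gave 4 groups of 3 libraries. Each library held 9208 to 20000 sorted cells and 20467027 to 31392396 counts. The *Myh11*-CreERT2 transgene acts in smooth muscle and in any other cells that express *Myh11* at the time of tamoxifen. GFPiSMC mice had no floxed alleles, so the mouse line and the receptor deletion cannot be told apart here. For the deleted genes, *Tgfbr1* had 196 to 292 CPM (counts scaled to library size) in GFPiSMC and 198 to 295 CPM in Tgfbr1/2iSMCKO libraries, and *Tgfbr2* had 88.9 to 128 and 68.2 to 102 CPM. Neither passed the test (adjusted p = 0.790 and 0.233 by edgeR). Counts per gene do not resolve the floxed exons, so these values are no check of the deletion.

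Extracellular pyrophosphate is a potent inhibitor of mineral deposition. *Enpp1* makes it from ATP, *Ank* supports its release from the cell, and the phosphatase *Alpl* breaks it down to phosphate. *Mgp*, a vitamin K–dependent matrix protein, and the phosphoprotein *Spp1* hold back calcification of the artery wall. *Sox9* is the master transcription factor of cartilage and *Runx2* that of bone, *Runx1* is a related Runx factor, and *Acan* and *Comp* are matrix proteins abundant in cartilage. TGF-β, which signals through the receptors encoded by *Tgfbr1* and *Tgfbr2*, is a regulator of both programmes.

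The messenger RNAs of the calcification inhibitors *Mgp* and *Enpp1* were 3.89-fold and 2.24-fold lower in Tgfbr1/2iSMCKO cells over both segments. *Ank* was 1.33-fold lower, a call that was lost in 13 of 16 alternatives. The cartilage and bone regulators, their matrix genes, *Alpl* and *Spp1* did not pass the test for genotype. *Sox9* and *Runx2* had 3.36-fold and 3.07-fold lower levels in descending than in ascending/arch cells over both genotypes. The fit over both genotypes was added after the data were seen, and *Runx2* lost its call in 6 of 10 alternatives. In the planned comparisons of the segments within a genotype by edgeR, *Sox9* passed in GFPiSMC cells only and *Runx2* in neither genotype. The *Sox9* call in GFPiSMC cells was lost in 3 of 10 alternatives, each without a GFPiSMC mouse. Whether its segment difference changed with genotype was tested by edgeR and did not pass.

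Promoter sequences are shown for *Enpp1* and *Ank*, the members called for genotype that had an entry in the RefSeq promoter table of GRCm38.p6, in which 7 of the 10 genes were found. In the same build *Mgp* lies on chr6:136872435-136875823, minus strand, *Sox9* on chr11:112782224-112787760, plus strand, and *Runx2* on chr17:44495987-44814797, minus strand. Each run holds the 250 bases upstream of the RefSeq start site, 5′ to 3′ on the strand of the gene. Capitals mark matches to the RUNX element TGTGGT, which reads ACCACA on the other strand. The SMAD element CAGACA, or TGTCTG on the other strand, was searched in the same way on both strands, and the letters of the elements do not overlap each other. *Enpp1* lies on chr10:24637914-24712159, minus strand, and its upstream run is chr10:24712160-24712409. *Ank* lies on chr15:27466677-27594909, plus strand, with its upstream run at chr15:27466427-27466676.
Enpp1: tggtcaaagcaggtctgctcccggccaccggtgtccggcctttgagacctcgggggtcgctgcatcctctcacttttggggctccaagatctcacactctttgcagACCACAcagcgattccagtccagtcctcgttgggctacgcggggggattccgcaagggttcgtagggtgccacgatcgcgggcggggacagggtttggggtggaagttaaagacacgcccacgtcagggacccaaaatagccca
Ank: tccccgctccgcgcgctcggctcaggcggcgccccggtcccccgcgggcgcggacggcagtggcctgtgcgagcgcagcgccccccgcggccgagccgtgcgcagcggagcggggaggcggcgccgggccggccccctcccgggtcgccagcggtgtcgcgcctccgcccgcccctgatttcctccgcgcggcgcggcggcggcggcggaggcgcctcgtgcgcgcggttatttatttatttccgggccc
*Enpp1* had 1 RUNX match and *Ank* had none, and neither run held the SMAD letters. The upstream run of *Runx2*, which is not printed, held 1 RUNX match and no SMAD match. Of the other unprinted runs, the one at the first listed start site of *Spp1* held 1 match to each element, and the rest held neither. Over all 32851 promoters of the table, 14% held the RUNX letters and 17.1% the SMAD letters. A match describes letters in this window and not a site that is bound.

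The members covered a wide range of abundance. Levels are compared between genes as CPM per kilobase of exonic length. In GFPiSMC ascending/arch cells, *Mgp* had 1043 CPM per kilobase and ranked 31 among 22279 genes. *Ank* followed at 28.8, *Enpp1* at 10.5 and *Sox9* at 7.93 CPM per kilobase. The libraries of *Enpp1* and *Sox9* overlapped on this scale, whereas those of *Mgp* and *Ank* stood apart from the next gene. *Acan* at 2.07, *Alpl* at 1.79, *Spp1* at 1.48, *Comp* at 0.642, *Runx2* at 0.516 and *Runx1* at 0.217 CPM per kilobase made up the low end, and each overlapped its neighbour in this order. In GFPiSMC descending cells *Mgp* ranked 29, and in Tgfbr1/2iSMCKO cells it ranked 131 in the ascending/arch and 195 in the descending segment. *Runx1* and *Runx2* each stayed under 0.62 CPM per kilobase in every library.

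**Figure D1:**
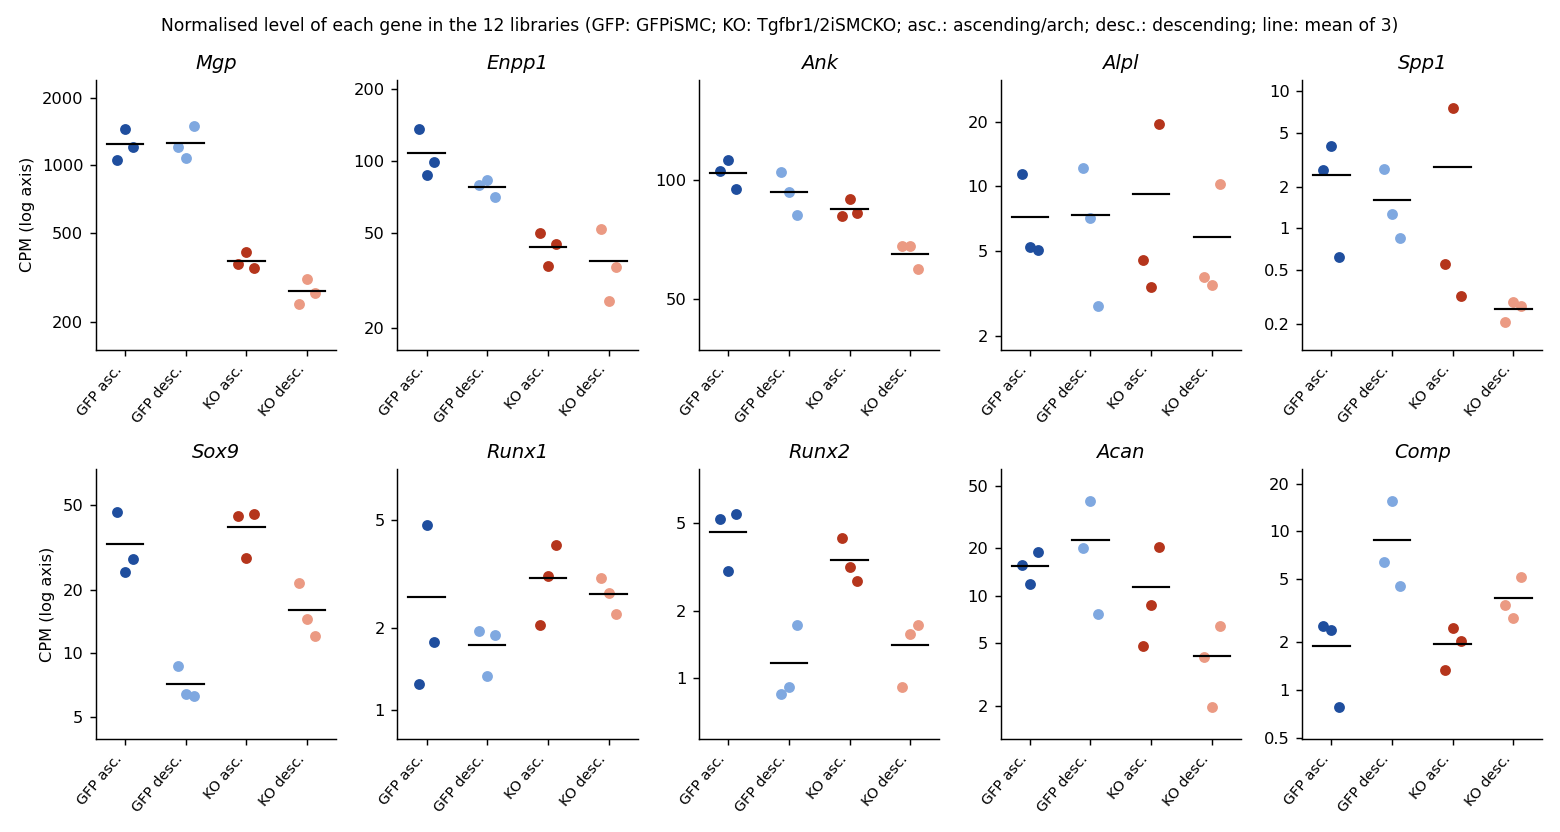
CPM (log axis) of each of the 10 genes in the 12 libraries by group, 1 point per library and a line at the mean of 3. Mgp and Enpp1 are lower in every Tgfbr1/2iSMCKO library than in any GFPiSMC library, and Sox9 and Runx2 are lower in every descending library than in any ascending/arch library.

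In the accounts that follow, levels are CPM after TMM scaling, and 3 values stand for replicates 1, 2 and 3 of a group. Differences are log2 fold changes with their SE, and a gene passed the test with an adjusted p under 0.05 in edgeR over all genes tested. In bulk RNA, fewer cells with a transcript and less of it per cell cannot be told apart. The fit over both segments took the 12 libraries as independent. By their numbers, 2 of them were taken to come from each animal, which the labels do not state outright. If so, the p-values of this fit mix the spread between mice with that within a mouse and between libraries. With counts summed per animal the fit called 304 genes lower and 147 higher, in place of 721 and 402.

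*Mgp* had the largest fold change of the members called for genotype. GFPiSMC cells had 1051, 1456 and 1207 CPM of *Mgp* in the ascending/arch and 1202, 1078 and 1500 CPM in the descending segment. Tgfbr1/2iSMCKO cells had 365, 411 and 348 CPM in the ascending/arch and 242, 311 and 272 CPM in the descending segment. All 6 Tgfbr1/2iSMCKO libraries were far lower than any of the 6 GFPiSMC libraries. The log2 fold change of *Mgp* was −1.96 (SE 0.13, edgeR adjusted p = 1.31e-06), and it was −1.93 with the counts of each animal summed (adjusted p = 0.000277). *Mgp* also passed a test against a 2-fold change, with an adjusted p of 0.000196 by edgeR. By segment, the fall was 3.31-fold in the ascending/arch (edgeR adjusted p = 0.000221) and 4.59-fold in the descending aorta (edgeR adjusted p = 2.81e-05).

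*Enpp1*, the ectoenzyme that generates pyrophosphate, was the second inhibitor with separated groups. It had 136, 87.0 and 99.4 CPM in GFPiSMC ascending/arch and 79.4, 83.0 and 70.3 CPM in GFPiSMC descending cells. In Tgfbr1/2iSMCKO cells it had 49.7, 36.2 and 45.1 CPM in the ascending/arch and 52.0, 25.9 and 36.1 CPM in the descending segment. The highest Tgfbr1/2iSMCKO library, at 52.0 CPM, stayed under the lowest GFPiSMC library, at 70.3 CPM. The log2 fold change of *Enpp1* was −1.16 (SE 0.18, edgeR adjusted p = 0.00139) over both segments, and −1.18 with the counts of each animal summed (adjusted p = 0.0355). Within the ascending/arch it was −1.30 (edgeR adjusted p = 0.0271), and leaving out any mouse but Tgfbr1/2iSMCKO replicate 1 moved that adjusted p to between 0.0596 and 0.175. Within the descending aorta it was −1.03 and did not pass (edgeR adjusted p = 0.0763, 0.00903 by DESeq2).

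*Ank*, the multipass membrane protein needed for pyrophosphate export, had a small difference. Its levels were 106, 112 and 94.7 CPM in GFPiSMC ascending/arch and 105, 93.0 and 81.4 CPM in GFPiSMC descending cells. They were 81.2, 89.3 and 82.3 CPM in Tgfbr1/2iSMCKO ascending/arch and 67.8, 68.0 and 59.4 CPM in Tgfbr1/2iSMCKO descending cells. Within each segment the Tgfbr1/2iSMCKO libraries were the lower ones without overlap, but the groups overlapped when the segments were put together. The log2 fold change of *Ank* was −0.41 (SE 0.11, edgeR adjusted p = 0.0413). This call was lost in 13 of 16 alternatives, among them leaving out any mouse, and with the counts of each animal summed the change was −0.39 (adjusted p = 0.301).

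*Spp1*, or osteopontin, is made by injured and inflamed arteries and by macrophages. GFPiSMC cells had 2.68, 4.02 and 0.620 CPM of *Spp1* in the ascending/arch and 2.72, 1.26 and 0.844 CPM in the descending segment. Tgfbr1/2iSMCKO cells had 0.549, 7.62 and 0.322 CPM in the ascending/arch and 0.207, 0.289 and 0.270 CPM in the descending segment. All 3 Tgfbr1/2iSMCKO descending libraries were lower than the GFPiSMC ones, whereas the ascending/arch library of Tgfbr1/2iSMCKO replicate 2 was the highest of all 12. Over both segments the log2 fold change was −1.08 (SE 0.85, edgeR adjusted p = 0.643). Without Tgfbr1/2iSMCKO replicate 2 it was −2.59 (adjusted p = 0.0253), so that 1 mouse decided the call. The counts of *Spp1* were 5 to 157 per library. Summed levels of 7 macrophage markers ranged from 6.21 to 22.2 CPM over the libraries, and their part in the *Spp1* values was not tested.

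*Alpl*, the tissue-nonspecific alkaline phosphatase that removes pyrophosphate, varied more between mice than between genotypes. GFPiSMC cells had 11.4, 5.22 and 5.04 CPM in the ascending/arch and 12.1, 7.12 and 2.77 CPM in the descending segment. Tgfbr1/2iSMCKO cells had 4.53, 3.40 and 19.6 CPM in the ascending/arch and 3.77, 3.46 and 10.2 CPM in the descending segment. Both libraries of Tgfbr1/2iSMCKO replicate 3 and both of GFPiSMC replicate 1 were at the high end. The log2 fold change of *Alpl* was 0.01 (SE 0.50, edgeR adjusted p = 0.997), and it ranged from −0.94 to 0.54 as mice were left out in turn.

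Of the transcription factors, *Sox9* had the highest level. GFPiSMC cells had 46.5, 24.1 and 27.8 CPM in the ascending/arch and 8.67, 6.41 and 6.27 CPM in the descending segment. Tgfbr1/2iSMCKO cells had 44.6, 28.1 and 45.5 CPM in the ascending/arch and 21.5, 14.5 and 12.1 CPM in the descending segment. The genotypes overlapped in the ascending/arch, and in the descending segment all 3 Tgfbr1/2iSMCKO libraries were higher. For genotype, *Sox9* had a log2 fold change of 0.71 (SE 0.25) over both segments and did not pass (edgeR adjusted p = 0.148). In the descending aorta it was 1.17 (SE 0.32, edgeR adjusted p = 0.119), which passed by DESeq2 alone among the alternatives (adjusted p = 0.0147).

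*Runx1* and *Runx2* had few counts, 34 to 140 and 22 to 142 counts per library. *Runx1* ranged from 1.25 to 4.81 CPM in GFPiSMC libraries and from 2.06 to 4.03 CPM in Tgfbr1/2iSMCKO libraries. Its log2 fold change was 0.43 (SE 0.33, edgeR adjusted p = 0.641). *Runx2* had 5.21, 3.02 and 5.45 CPM in GFPiSMC ascending/arch and 0.844, 0.911 and 1.73 CPM in GFPiSMC descending cells. In Tgfbr1/2iSMCKO cells it had 4.26, 3.15 and 2.74 CPM in the ascending/arch and 0.911, 1.57 and 1.72 CPM in the descending segment. Every descending library was lower than every ascending/arch library, and the genotypes overlapped. For genotype its log2 fold change was −0.09 (SE 0.30, edgeR adjusted p = 0.940). *Runx2* shares its locus with *Supt3* and 3 antisense transcripts on the opposite strand, and a single antisense gene lies across *Runx1*. Whether counting used the strand is not given in the sources used here, so some of these counts may belong to the neighbours. The same holds for *Ank*, which lies across the protein-coding gene *Otulin* on the opposite strand. Other annotated genes overlap members on the same strand, where counting by strand would not separate them. There were 3 such genes at *Ank*, 1 at *Spp1* and the ribosomal RNA gene *n-R5s27* at *Runx2*.

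*Acan*, the large aggregating proteoglycan, had 15.6, 11.9 and 18.9 CPM in GFPiSMC ascending/arch and 19.99, 39.8 and 7.63 CPM in GFPiSMC descending cells. It had 4.80, 8.78 and 20.4 CPM in Tgfbr1/2iSMCKO ascending/arch and 4.10, 1.98 and 6.41 CPM in Tgfbr1/2iSMCKO descending cells. In the descending segment all 3 Tgfbr1/2iSMCKO libraries were lower than the GFPiSMC ones, and in the ascending/arch the library of Tgfbr1/2iSMCKO replicate 3 was the highest of both genotypes. The log2 fold change of *Acan* was −1.43 (SE 0.53, edgeR adjusted p = 0.176, 0.0352 by DESeq2) over both segments and −2.43 (SE 0.65, edgeR adjusted p = 0.105, 0.00369 by DESeq2) in the descending aorta.

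*Comp*, a pentameric thrombospondin family member that binds collagen, was at 2.53, 2.40 and 0.785 CPM in GFPiSMC ascending/arch and 6.44, 15.5 and 4.50 CPM in GFPiSMC descending cells. It was at 1.34, 2.47 and 2.03 CPM in Tgfbr1/2iSMCKO ascending/arch and 3.44, 2.84 and 5.19 CPM in Tgfbr1/2iSMCKO descending cells. Every descending library was higher than every ascending/arch library, the only member with that order. For genotype, the log2 fold change of *Comp* was −0.61 (SE 0.41, edgeR adjusted p = 0.558).

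Over both segments 3 of the 10 members passed for lower levels in Tgfbr1/2iSMCKO cells and none for higher levels, and by edgeR 5 of the 10 had an unadjusted p under 0.05, as did 3596 of the 22320 genes. Of all genes tested, 3.23% were called lower and 1.8% higher. With a change beyond 2-fold in addition, *Mgp* and *Enpp1* were called lower, against 1.64% of all genes lower and 1.03% higher. These were also the 2 members with no overlap between 6 and 6 libraries, an order that 2.89% of all genes had on the lower and 1.51% on the higher side. The median log2 fold change of the members was −0.51 and that of all genes tested was 0.04.

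In the ascending/arch 2 members were called lower, with 1.01% of all genes called lower and 0.403% higher. Groups of 3 and 3 libraries did not overlap for 3 members there, *Mgp*, *Enpp1* and *Ank*, all on the lower side, where 10.1% of all genes lay, with 8.87% on the higher side. In the descending aorta only *Mgp* was called lower by edgeR, with 1.21% of all genes called lower and 0.52% higher, and DESeq2 called 4 members lower and 1 higher, among 558 and 361 of the 22320 genes. Without overlap there were 5 members on the lower side, *Mgp*, *Spp1*, *Acan*, *Enpp1* and *Ank*, and 2 on the higher side, *Sox9* and *Runx1*, with 7.75% and 7.19% of all genes. With the replicate number as a block, the descending adjusted p of *Mgp* was 0.0742 by edgeR at a log2 fold change of −2.19. The labels do not say whether the numbers pair mice across genotypes.

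**Figure D2:**
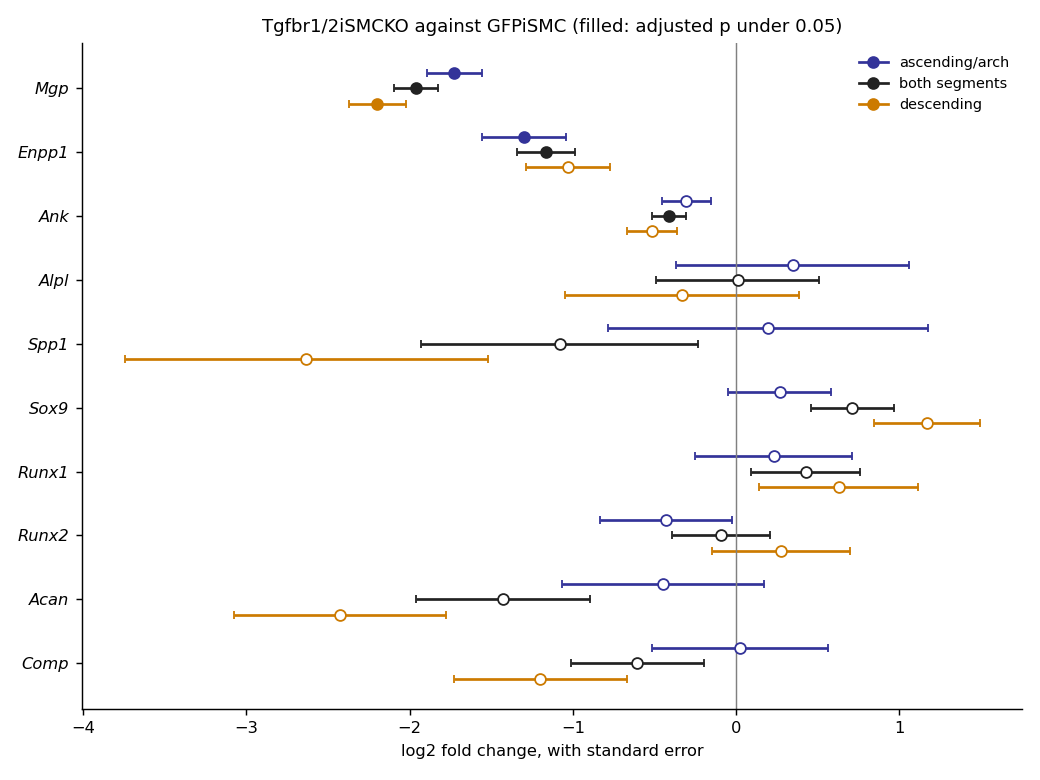
Log2 fold change of Tgfbr1/2iSMCKO against GFPiSMC for each gene (x axis), with its SE, in ascending/arch cells, in descending cells and over both segments. Points are filled where the adjusted p was under 0.05, which holds for Mgp in all 3 fits, for Enpp1 in the ascending/arch and over both segments, and for Ank over both segments.

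Whether the genotype effect differed between the segments was tested as an interaction. No member passed, and neither did any other of the 22320 genes by edgeR, where 659 had an unadjusted p under 0.05 and DESeq2 called 8. The smallest unadjusted p among the members was that of *Acan*, at 0.0437 by edgeR, with a log2 difference of −1.98 (SE 0.88) toward a larger fall in the descending aorta. For *Mgp* the log2 difference was −0.47 (SE 0.23), for *Sox9* 0.90 (SE 0.45) and for *Enpp1* 0.27 (SE 0.36). All 4 differences came with an adjusted p of 1 by edgeR.

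The comparison of the segments showed a difference in *Sox9* between them. In GFPiSMC cells *Sox9* was 4.60-fold lower in the descending segment, with a log2 fold change of −2.20 (SE 0.33, edgeR adjusted p = 0.0141). It was the only member called there, with 0.309% of all genes called lower and 0.0672% higher. *Sox9*, *Runx2* and *Enpp1* were lower and *Comp* was higher without overlap, as were 7.8% and 5.19% of all genes. Leaving out any of the 3 GFPiSMC mice brought the adjusted p to between 0.101 and 0.139. In Tgfbr1/2iSMCKO cells *Sox9* was 2.46-fold lower, at −1.30 (SE 0.32), and did not pass (edgeR adjusted p = 0.312, 0.0158 by DESeq2). No member was called by edgeR in Tgfbr1/2iSMCKO cells, where 0.0941% of all genes were called lower and 0.0179% higher, and 6 of the 10 members had an unadjusted p under 0.05, as did 821 of the 22320 genes. DESeq2 called 1 member there, among 116 genes lower and 48 higher. Without overlap, 5 members were lower, *Mgp*, *Spp1*, *Sox9*, *Runx2* and *Ank*, and *Comp* was higher, against 4.08% and 3.15% of all genes.

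A fit over all 12 libraries with the genotype as covariate, added after the data were seen, called 2 of the 10 members lower in the descending aorta, against 0.578% of all genes lower and 0.22% higher. *Sox9* had a log2 fold change of −1.75 (SE 0.26, edgeR adjusted p = 0.00428) and passed in all 10 alternatives. *Runx2* had −1.62 (SE 0.30, edgeR adjusted p = 0.0236). With the animal as a block its adjusted p was 0.067 by edgeR, and it was between 0.0541 and 0.173 when any mouse but Tgfbr1/2iSMCKO replicate 3 was left out. *Comp* had a log2 fold change of 1.59 (SE 0.41) toward the descending aorta and passed by DESeq2 only (edgeR adjusted p = 0.149, 0.00597 by DESeq2). An order with no overlap between 6 and 6 libraries was seen in 0.6% of all genes toward lower and in 0.211% toward higher descending levels.

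**Figure D3:**
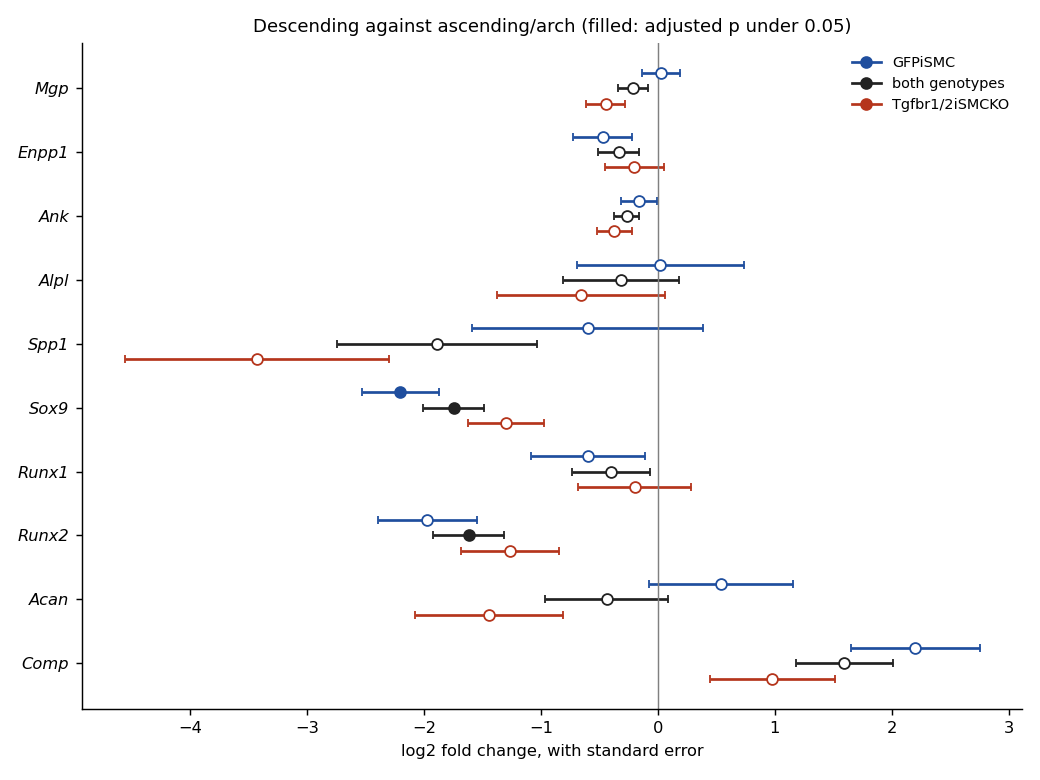
Log2 fold change of descending against ascending/arch cells for each gene (x axis), with its SE, in GFPiSMC, in Tgfbr1/2iSMCKO and over both genotypes. Filled points, with an adjusted p under 0.05, are those of Sox9 in GFPiSMC and of Sox9 and Runx2 over both genotypes.

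Markers of fibroblasts moved with the same split. The summed level of 7 fibroblast markers was 112 to 247 CPM in ascending/arch libraries and 27.5 to 70.5 CPM in descending libraries, and none of the 7 was at 0 in all libraries of a group. *Dcn* and *Lum* were among the 178 genes called between the segments, at log2 fold changes of −2.30 and −4.30. *Lum* passed in all 10 alternatives, whereas *Dcn* was lost in 7, which were the fits without any 1 mouse (adjusted p from 0.0538 to 0.186) and the fit with the animal as a block (adjusted p = 0.0667). The ascending/arch library of Tgfbr1/2iSMCKO replicate 3 had the lowest sum of these markers in its segment, at 112 CPM. Its 45.5 CPM of *Sox9* was within the top 3 of the 12 libraries. Its 2.74 CPM of *Runx2* was the lowest of the 6 ascending/arch libraries. In the descending segment the marker sum was 27.5 to 54.3 CPM in Tgfbr1/2iSMCKO and 55.7 to 70.5 CPM in GFPiSMC libraries. *Col14a1* had the highest mean of the 7 there, at 34.8 CPM in GFPiSMC and 22.1 CPM in Tgfbr1/2iSMCKO. Means of *Dcn*, *Lum* and *Dpt* were also lower in Tgfbr1/2iSMCKO, and those of *Pdgfra*, *Pi16* and *Clec3b* were higher. No fibroblast marker tested was called for genotype in this segment. *Sox9* was higher in the Tgfbr1/2iSMCKO libraries there, and the *Runx2* levels overlapped. For genotype over both segments, *Col14a1* was the only one of these markers called, at a log2 fold change of −0.82 (edgeR adjusted p = 0.0316). Its call was lost in 10 of 16 alternatives, among them counts summed per animal (adjusted p = 0.185). The part of fibroblast RNA in the *Sox9* and *Runx2* differences was not tested.

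**Figure D4:**
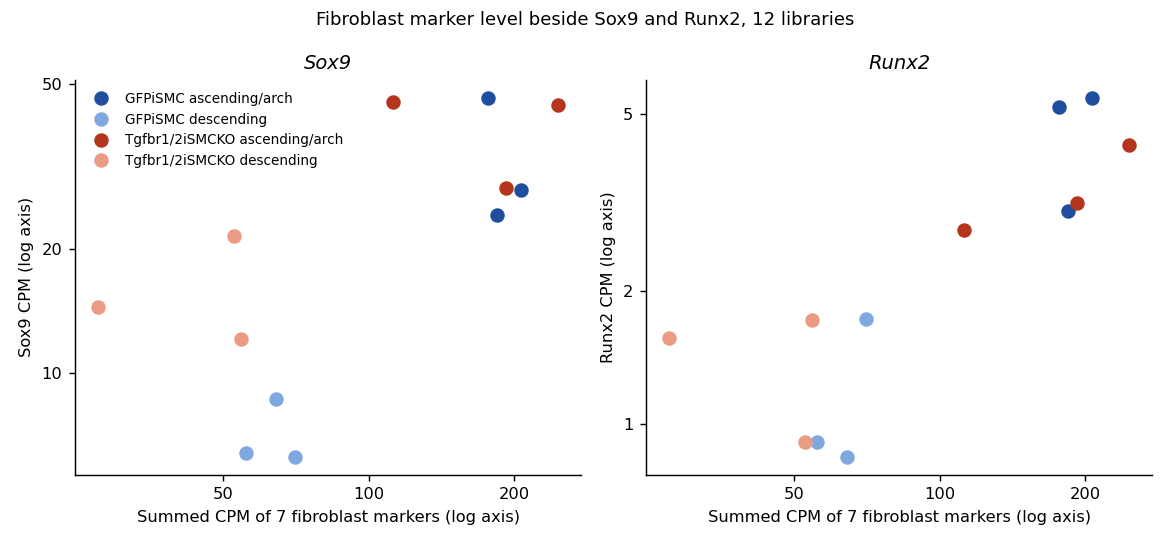
CPM of Sox9 and of Runx2 (y axis, log) against the summed CPM of 7 fibroblast markers (x axis, log) in the 12 libraries, 1 point per library. Ascending/arch libraries lie at 112 CPM of markers and above, and descending libraries at 70.5 CPM and below.

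Other cell types left few transcripts. Summed smooth muscle markers stood at 33860 to 47780 CPM, against 53.1 to 103 CPM of endothelial, 1.79 to 4.86 CPM of Schwann cell, 2.39 to 11.6 CPM of chondrocyte and 1.15 to 5.80 CPM of osteoblast markers. *Pecam1* made up most of the endothelial sum, at 44.4 to 95.7 CPM. Of the 5 endothelial markers only *Cdh5* was called for genotype, with a log2 fold change of 2.97 (edgeR adjusted p = 0.025). It rose in Tgfbr1/2iSMCKO cells from at most 14 to at most 79 counts per library, a call lost in 7 of 15 alternatives. The mean of *Pecam1* was lower in Tgfbr1/2iSMCKO cells, at 66.7 against 75.4 CPM in ascending/arch and 78.2 against 83.2 CPM in descending cells. *Vwf* had higher means in Tgfbr1/2iSMCKO cells in both segments, and *Tie1* and *Cldn5* in the descending segment only. Of the 5 chondrocyte markers, *Hapln1*, a link protein that other connective tissues also make, had 2.103 to 10.7 CPM and made up most of their sum. The others were near 0, with at most 0.481 CPM of *Col2a1*, 0.679 CPM of *Col9a1* and 0.537 CPM of *Matn1* in any library, and *Cnmd* was at 0 in 9 of 12 libraries. The chondrocyte sum was 6.82 to 11.6 CPM in GFPiSMC ascending/arch and 4.07 to 6.43 CPM in GFPiSMC descending libraries, without overlap, and in Tgfbr1/2iSMCKO it was 3.32 to 5.83 CPM in ascending/arch and 2.39 to 6.00 CPM in descending libraries. Its part in the *Sox9* difference was not tested. Of the 3 osteoblast markers, *Ibsp* had 0.249 to 5.33 CPM and *Sp7* 0.230 to 2.48 CPM, with counts in every library, and *Bglap* was at 0 in 10 of 12 libraries.

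Related genes were examined in lists of pathway partners. For genotype over both segments, 3.23% of all genes tested were called lower and 1.8% higher. Of 16 genes of pyrophosphate and phosphate handling, all tested, *Phospho1* rose and *Ppa1* fell. *Phospho1*, a phosphatase that starts mineral formation in matrix vesicles, had 0.477, 0.137 and 0.0826 CPM in GFPiSMC ascending/arch and 0.230, 0.105 and 0.241 CPM in GFPiSMC descending cells. It had 0.137, 1.41 and 1.16 CPM in Tgfbr1/2iSMCKO ascending/arch and 1.57, 1.36 and 1.75 CPM in Tgfbr1/2iSMCKO descending cells. All but 1 of the Tgfbr1/2iSMCKO libraries were higher than any GFPiSMC library, on 2 to 52 counts per library. The log2 fold change of *Phospho1* was 2.46 (SE 0.58, edgeR adjusted p = 0.025), a call lost in 8 of 15 alternatives. *Ppa1*, an inorganic pyrophosphatase of the cytosol named after its value was seen, had −0.54 (SE 0.14, edgeR adjusted p = 0.0408), lost in 10 of 16 alternatives, among them 5 of the 6 fits without a mouse and counts summed per animal (adjusted p = 0.270). The phosphate transporters *Slc20a1* and *Slc20a2* had log2 fold changes of −0.30 and 0.09 with an adjusted p of 0.512 and 0.914 by edgeR.

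Among 15 mineralization inhibitors and vitamin K cycle genes, 9 had enough counts and none passed. *Ggcx*, the carboxylase that activates *Mgp*, had a log2 fold change of −0.43 (SE 0.19, edgeR adjusted p = 0.261), and *Tnfrsf11b*, the decoy receptor osteoprotegerin, had 0.02 (SE 0.21, edgeR adjusted p = 0.982). The medians over this list and over the pyrophosphate list were −0.23 and 0.13, against 0.04 over all genes.

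Of 35 cartilage matrix and chondrogenic genes, 29 were tested, 3 fell and none rose, against 3.23% of all genes lower and 1.8% higher. The median log2 fold change of this list was −0.05, against 0.04 over all genes. *Wwp2*, a ubiquitin ligase gene that *Sox9* controls in cartilage, had 388 to 757 CPM in the 6 GFPiSMC and 97.8 to 309 CPM in the 6 Tgfbr1/2iSMCKO libraries. Its log2 fold change was −1.43 (SE 0.28, edgeR adjusted p = 0.0075), lost in 4 of 16 alternatives, which were the test against 2-fold and the fits in which GFPiSMC replicate 1 (adjusted p = 0.061) or Tgfbr1/2iSMCKO replicate 1 (adjusted p = 0.0702) was left out or counts were summed per animal (adjusted p = 0.0932). *Cilp2*, a cartilage matrix protein, had −1.31 (SE 0.34, edgeR adjusted p = 0.0442), lost in 12 of 15 alternatives. *Hif1a*, the oxygen-sensing factor, had −0.71 (SE 0.15, edgeR adjusted p = 0.0105) and is named after its value was seen. Its call was lost in 4 of 16 alternatives, which were the test against 2-fold, counts summed per animal (adjusted p = 0.0922) and the fits without Tgfbr1/2iSMCKO replicate 1 (adjusted p = 0.0854) or GFPiSMC replicate 3 (adjusted p = 0.0709). The *Sox9* partners *Sox5* and *Sox6* had log2 fold changes of −0.24 and 0.06 with an adjusted p of 0.554 and 0.917 by edgeR.

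Of 25 osteogenic regulators and bone matrix genes, 22 were tested, 2 fell and none rose, against 3.23% of all genes lower and 1.8% higher. The median log2 fold change of this list was −0.04, against 0.04 over all genes. *Postn*, a matricellular protein of periosteum and of many other connective tissues, had 2819 to 3680 CPM in GFPiSMC and 1171 to 1664 CPM in Tgfbr1/2iSMCKO libraries, with a log2 fold change of −1.27 (SE 0.10, edgeR adjusted p = 6.16e-06). *Atf4*, a stress-response factor that also acts in osteoblasts, had 95.1 to 114 CPM in GFPiSMC and 35.3 to 68.7 CPM in Tgfbr1/2iSMCKO libraries, with a log2 fold change of −1.05 (SE 0.16, edgeR adjusted p = 0.00129). For each gene the genotypes did not overlap, an order that 2.89% of all genes had on the lower side. *Postn* and *Atf4* each lost the call in 1 of 16 alternatives, the test against 2-fold. The osteoblast factor *Sp7* had 0.86 (SE 0.40, edgeR adjusted p = 0.316), and *Bmp2* had −0.71 (SE 0.24, edgeR adjusted p = 0.128).

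**Figure D5:**
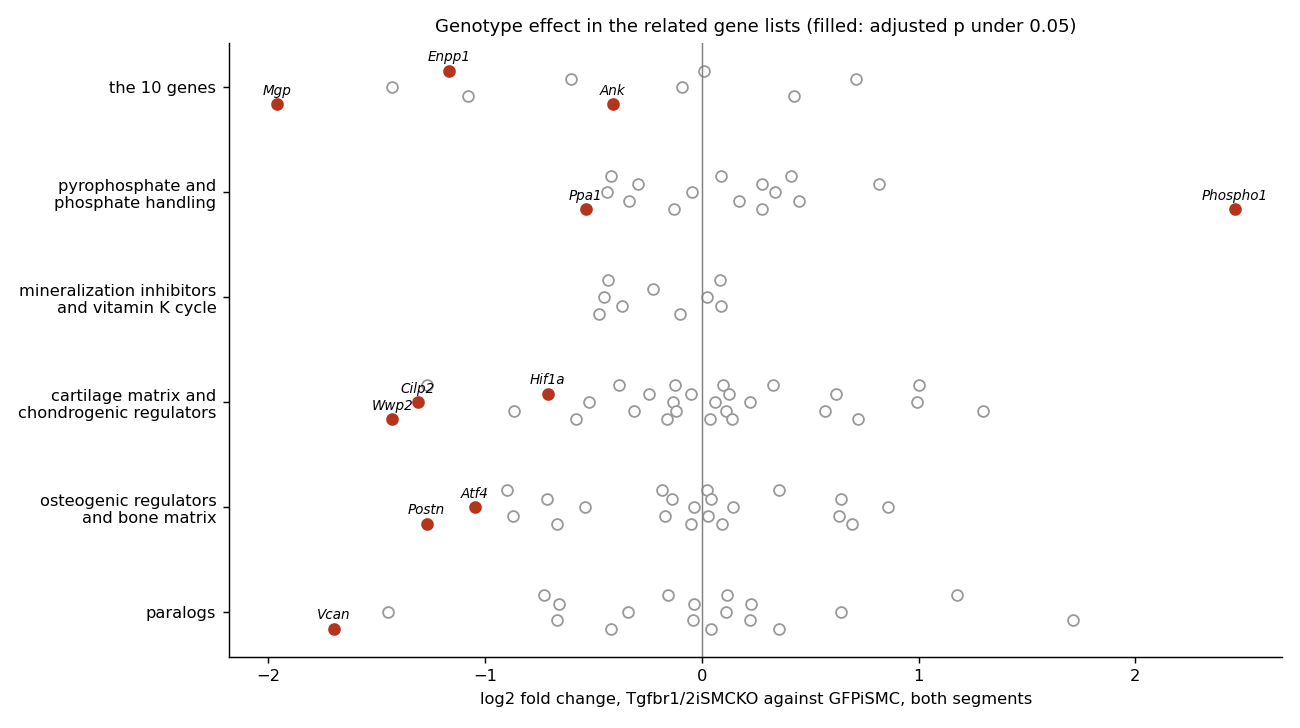
Log2 fold change of Tgfbr1/2iSMCKO against GFPiSMC over both segments (x axis) for the 10 genes and 5 lists of related genes, 1 point per gene tested (vertical spread within a list has no meaning). Filled points passed the test and are named, with Phospho1 at 2.46 the only one of them above 0.

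The paralogs of the members mostly did not pass for genotype, where 3.23% of all genes were called lower and 1.8% higher. Of 24 paralogs and partners, 19 were tested and *Vcan*, the aggregating proteoglycan related to *Acan*, was the only one called, at −1.70 (SE 0.16, edgeR adjusted p = 2.95e-05). It had 48.6 to 142 CPM in GFPiSMC and 17.8 to 38.9 CPM in Tgfbr1/2iSMCKO libraries, with no overlap, as for 2.89% of all genes on the lower side. *Vcan* passed in all 16 alternatives. The ectoenzymes *Enpp2* and *Enpp3* had log2 fold changes for genotype of −0.04 and −0.42 with an adjusted p of 0.974 and 0.811 by edgeR. The *Comp* relatives *Thbs1*, *Thbs2*, *Thbs3* and *Thbs4* had −0.16, −0.66, 0.12 and 1.71 with an adjusted p between 0.103 and 0.950 by edgeR. The Runx family member *Runx3* and the shared partner *Cbfb* had 0.35 and −0.04 with an adjusted p of 0.818 and 0.963 by edgeR.

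Between the segments, over both genotypes, the lists held further genes that were lower in the descending aorta and are named after their values were seen. *Msx2*, a homeobox factor of skull and heart valve development, had 4.71 to 21.4 CPM in ascending/arch and 0.169 to 0.866 CPM in descending libraries, a log2 fold change of −4.75 (SE 0.49, edgeR adjusted p = 0.00037). *Dlx5* and *Dlx6*, neighbouring homeobox genes of the jaw and bone, had −3.58 (SE 0.39, adjusted p = 0.000498) and −4.35 (SE 0.54, adjusted p = 0.00126) by edgeR. *Enpp2*, which makes lysophosphatidic acid, had 58.7 to 193 CPM in ascending/arch and 10.3 to 23.8 CPM in descending libraries, a log2 fold change of −2.96 (SE 0.31, edgeR adjusted p = 0.000392). Each of these 4 genes passed in all 10 alternatives. *Enpp3*, *Vcan*, *Chad*, *Pthlh* and *Chst11* were called as well, with log2 fold changes from −5.26 to −0.84. Of these, only *Chst11* passed in all 10 alternatives, and *Enpp3*, *Vcan*, *Chad* and *Pthlh* lost the call in 5, 4, 3 and 1 of the fits without a mouse. Counted by list, 3 of 22 osteogenic genes, 3 of 29 cartilage genes, 1 of 16 pyrophosphate genes and 3 of 19 paralogs were called lower and none higher. *Enpp3* is counted in both the pyrophosphate list and the paralogs. Of all genes tested, 0.578% were called lower and 0.22% higher in this fit. The fibroblast markers given for *Sox9* split the same libraries.

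Genes with a pattern most like that of a member were listed by Pearson's r of log2 CPM over the 12 libraries, as a description, since these libraries share genotypes, segments and animals. For *Mgp* they were *Postn* (r = 0.990), *Mylk4* (r = 0.987) and *Nox4* (r = 0.986). For *Enpp1* they were *Fbln5* (r = 0.958), *Cpq* (r = 0.950) and *Itm2b* (r = 0.949). For *Ank* they were *Plaur* (r = 0.958), *Tspo* (r = 0.944) and *Vps13a* (r = 0.941), and for *Sox9* they were *Atp1b3* (r = 0.934), *Atp1b1* (r = 0.929) and *Nme7* (r = 0.912). *Acan* was closest to *Aqr* (r = 0.959), *Comp* to *Efhd1* (r = 0.924) and *Alpl* to *Sec14l1* (r = 0.943). *Runx1*, *Runx2* and *Spp1* had a mean under 100 counts and were not compared in this way.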

How the data were processed

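RNA-seq counts of 12 libraries were analysed as deposited. Per the labels and the paper's methods, the authors aligned reads with HISAT2 to mm10 and quantified genes with StringTie. The deposited values are whole-number counts per gene with no normalization, and how StringTie output became counts is not given in the sources used here. Symbols, coordinates and exonic lengths came from a later GENCODE release on the same build.

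Tests used edgeR 4.0.16 in R 4.3.3 with TMM factors, filterByExpr on the 4 groups, quasi-likelihood fits and Benjamini-Hochberg adjustment over 22320 genes. The fit over both segments had segment and genotype as terms, and all other planned comparisons used 4 group means. Alternatives used DESeq2 1.42.0, limma 3.58.1 with voom, other scalings and filters, blocks, summed counts and each animal left out. The steps were tested on simulated data, with each library drawn independently and no effect of the animal. That simulation could not check how 2 libraries per animal affect the p-values. An exact permutation test of 3 against 3 cannot go below p = 0.1 and was not used.

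Same-numbered libraries of a genotype were treated as coming from 1 animal. Their residuals correlated at 0.184, −0.245 and 0.0287 for GFPiSMC and 0.0565, 0.377 and 0.665 for Tgfbr1/2iSMCKO. The named list genes passed the test with a change beyond 2-fold for genotype or are paralogs. Other list genes and markers were named after their values were seen. The 10 genes and all lists were chosen with earlier results of these data known. Figures used matplotlib 3.10.9.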

Additional observations from a re-analysis of the deposited data

How the results depend on the processing

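Of the results for the 10 genes under each alternative, 707 kept their direction and their side of the threshold, 30 lost the call, 10 gained it and 32 changed sign. *Mgp* passed for genotype over both segments in all 16 alternatives, with log2 fold changes from −2.04 to −1.84, and *Enpp1* in all but the test against 2-fold, where its adjusted p was 1. The cause of the changes given here was not tested, except that leaving out an animal removes 2 libraries.

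Over both segments DESeq2 called 1139 genes lower and 891 higher, in place of 721 and 402. The test against 2-fold called 99 and 38 and kept 1 member, and counts summed per animal gave 304 and 147. With library size only, the median log2 fold change of all genes was 0.16 in place of 0.04, and 505 genes were called lower and 699 higher, so that 58.1% of calls were higher in place of 35.8%. *Runx2* was then at 0.028. *Alpl* was at −0.0029 with a mean of at least 50 counts, −0.22 with the replicate block and −0.089 by limma-voom. As animals were left out, 416 to 708 genes were lower and 196 to 395 higher, *Runx2* ranged from −0.29 to 0.16 and *Alpl* from −0.94 to 0.54.

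In the ascending/arch, 315 genes were called, 909 by DESeq2, 103 with the replicate block and 134 to 245 as animals were left out. The block kept 1 of 2 members, and leaving out animals kept 1 to 2. Under the block *Spp1* was at −0.70 and *Alpl* at −0.051. Leaving out animals gave −2.48 to 0.76 for *Spp1*, −0.12 to 1.02 for *Runx1*, −0.34 to 0.26 for *Comp* and −0.86 to 0.85 for *Alpl*. In the descending aorta, 385 genes were called, 919 by DESeq2 with 4 members lower and 1 higher, 138 with the segment fitted alone, 14 with the replicate block, which kept 0 members, and 137 to 337 as animals were left out, where *Alpl* ranged from −1.03 to 0.23. For the interaction, no filter gave 1 gene, DESeq2 8 and leaving out animals 0 to 3, with *Runx1* from −0.55 to 0.84. Libraries with the same number in the 2 genotypes come from different mice, and their deviations correlated from −0.512 to 0.214. Same-numbered libraries within a genotype correlated from −0.245 to 0.665. These ranges overlap, so they cannot decide whether the numbers pair genotypes.

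Between the segments, DESeq2 called 284 genes in GFPiSMC with 2 members lower and 1 higher, 164 in Tgfbr1/2iSMCKO with 1 member lower, and 381 over both genotypes with 1 member higher, in place of 84, 25 and 178. No filter gave 47 in Tgfbr1/2iSMCKO. In GFPiSMC, library size only put *Mgp* at −0.00077 and *Alpl* at −0.026, and the animal as a replicate block put *Alpl* at −0.10. That block called 1 member over both genotypes. As animals were left out, 6 to 86 genes and 0 to 1 members were called in GFPiSMC, 5 to 18 genes in Tgfbr1/2iSMCKO, and 86 to 151 genes and 1 to 2 members over both genotypes. The same fits gave, in GFPiSMC, −0.14 to 0.26 for *Mgp*, −1.14 to 0.11 for *Spp1*, −1.03 to 0.35 for *Runx1*, −0.32 to 1.12 for *Acan* and −0.15 to 0.21 for *Alpl*. *Runx1* ranged from −0.53 to 0.15 in Tgfbr1/2iSMCKO and from −0.57 to 0.014 over both genotypes.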
